A study of Mus musculus with 8 samples.

Results

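The nuclear pore and nuclear transport genes described here are 51 genes given by symbol: 26 nucleoporins, the proteins that build the pore, and 25 transport factors, the receptors and Ran-cycle proteins that carry cargo through it. All 51 symbols were found in the deposited table of 15358 genes, all 51 passed the filter on low counts, and none lies on a sex chromosome. RNA was sequenced from whole ventricle of mouse hearts at embryonic day 14.5. Control embryos were Lem2 f/f, with floxed alleles of Lem2 (symbol Lemd2), which encodes a LEM-domain protein of the inner nuclear membrane. Conditional knockout (cKO) embryos were XMLC2V; Lem2 f/f, so they carried the same floxed alleles and in addition a Cre transgene that the labels call XMLC2V. The cells in which that transgene is active are not given in the sources used here, and the controls carried no Cre. Libraries of 3 control and 4 cKO samples were compared, and control replicate 4 was not analysed here.

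A nuclear pore is a ring of nucleoporins set into the nuclear envelope where the inner and outer membranes fuse. A scaffold of Y complexes and inner ring proteins holds a central channel lined with phenylalanine-glycine repeats, which cytoplasmic filaments and a nuclear basket flank. Importins bind cargo in the cytoplasm and release it in the nucleus when they meet Ran bound to GTP, and exportins bind cargo together with Ran-GTP and release it once GTP is hydrolysed in the cytoplasm. Importin alpha is the adaptor that reads the classical nuclear localisation signal and hands its cargo to importin beta.

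The libraries held 28921922 to 39351262 counts, and the 51 genes received between 355 and 27627 counts each per library. Pooled over all genes with enough counts, variance between libraries of a group was 9.61 to 13.5 times counting noise (chi-square over its degrees of freedom). That value was not computed for the 51 genes alone. Lemd2 lay at 34.4 to 36.8 CPM (counts relative to TMM-scaled library size) in control and 13.7 to 18.5 CPM in cKO (log2 fold change -1.13, SE 0.09), and the adjusted p was 0.00135 in edgeR's quasi-likelihood test; every adjusted p below is Benjamini-Hochberg over all genes tested. Xist RNA was at 1324 and 1102 CPM in cKO replicates 3 and 4 and at most 0.504 CPM elsewhere, and all 3 controls expressed Y-linked Ddx3y, so sex was not balanced between groups. The codes in the titles, which the labels do not explain, put control replicate 3 and cKO replicate 4 under F191 and the other 5 libraries under F169. The 12 cardiomyocyte markers listed were all detected and summed to 43429 to 46140 CPM in control and 39434 to 45901 CPM in cKO. In whole ventricle, fewer cells of a type and less RNA per cell cannot be told apart.

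Differences in the 51 genes between cKO and control ventricle were small. Of the 51 genes 1 passed the test over all genes, the importin alpha gene Kpna1, which was 14.2% higher in cKO, whereas 1.09% of all 14887 genes tested passed and 0.766% passed as higher in cKO (edgeR, adjusted p under 0.05). At an unadjusted p under 0.05, 13 of the 51 were higher and 1 was lower in cKO, where 9.4% of all genes were higher and 8.5% lower. Among the 9558 genes at least as abundant as the least abundant of the 51, these shares were 12% and 9.57%. The median log2 fold change was 0.06 over the 51 genes and -0.01 over all genes, and 38 of 51 values were above 0, against 47.9% of all genes. Every cKO library lay above every control for 15 of the 51 and below for 1, where 8.67% and 8.28% of all genes did so.

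Within the list, 11 of the 13 genes higher at an unadjusted p under 0.05 were transport factors. Of the 25 transport factors 23 had a positive log2 fold change, with a median of 0.09 and values from -0.07 for the exportin Xpo6 to 0.21 for Rangap1. Of the 26 nucleoporins 15 were positive, with a median of 0.01 and values from -0.11 for Nup62 to 0.11 for Ndc1. Pooling the classes into these 2 parts was done after the values were seen, and the difference between the parts was not tested. Summed over the 25 transport factors, each cKO library (4326 to 4576 CPM) exceeded each control (4122 to 4187 CPM). The summed nucleoporins overlapped, at 2326 to 2373 CPM in control and 2308 to 2399 CPM in cKO.

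**Figure D1:**
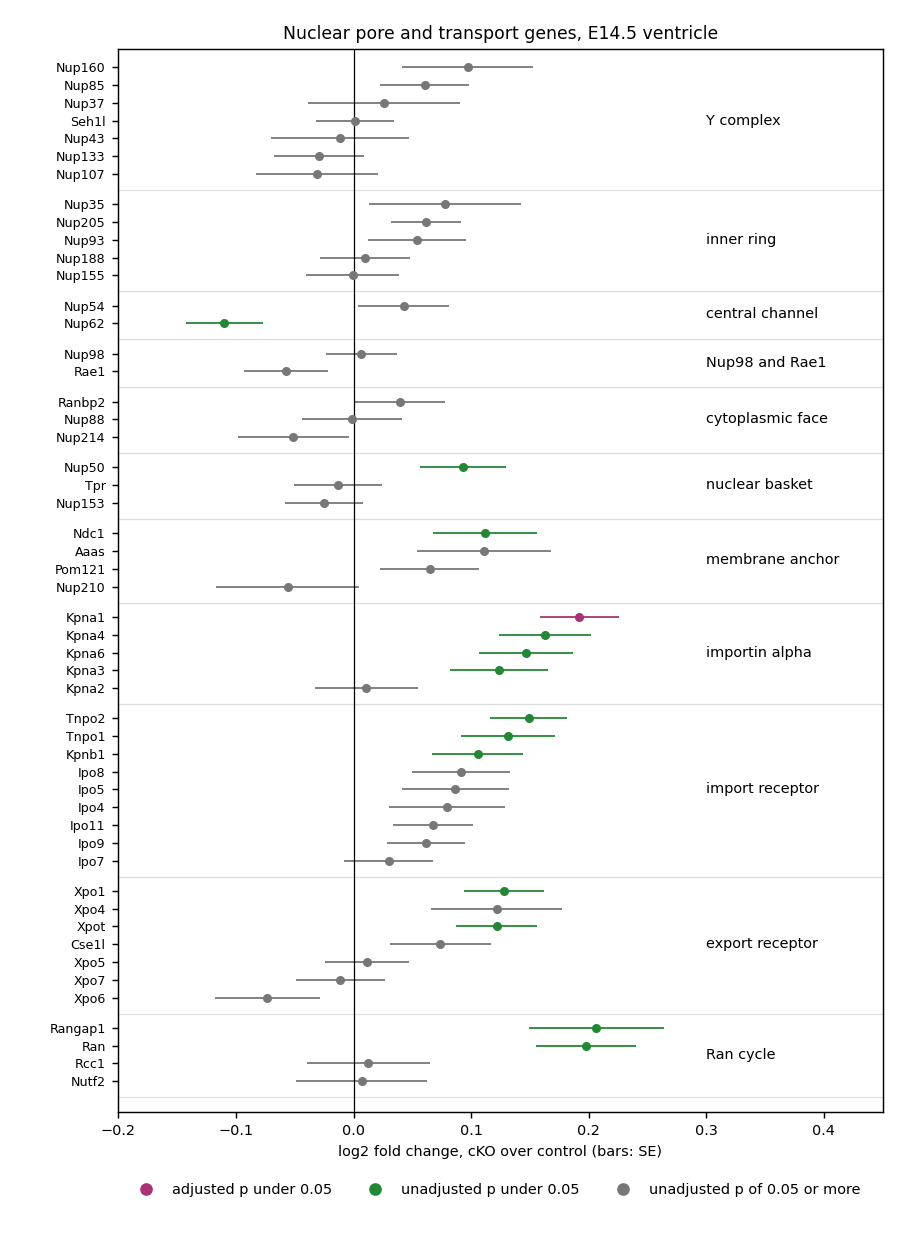
Log2 fold changes of the 51 genes (cKO over control, x axis; bars are the SE of the edgeR fit on 3 control and 4 cKO libraries), grouped by class and ordered by value within a class. Kpna1 is the gene with an adjusted p under 0.05, and 23 of the 25 transport factors in the lower 4 blocks lie to the right of 0, against 15 of the 26 nucleoporins above them.

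Importin alpha genes were the class with the largest median, 0.15, and 4 of its 5 members had an unadjusted p under 0.05. Kpna1 (chromosome 16), an adaptor of the subfamily it shares with Kpna6, lay at 108, 107 and 110 CPM in control replicates 1 to 3 and at 119, 127, 126 and 122 CPM in cKO replicates 1 to 4. All 4 cKO libraries were thus higher than all 3 controls, and the rise was 0.19 on the log2 scale (SE 0.03, adjusted p = 0.0342 by edgeR). The adjusted p of Kpna1 was above 0.05 without control replicate 1 (0.1), 2 (0.126) or 3 (0.101) and without cKO replicate 2 (0.108), 3 (0.113) or 4 (0.0594), again by edgeR. Its log2 fold change stayed between 0.18 and 0.21 over all 17 alternatives. Within the F169 libraries it was 0.21 (adjusted p = 0.128 by edgeR), and without the 2 Xist-expressing libraries it was 0.19 (adjusted p = 0.204 by edgeR).

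Its closest relative on the list, Kpna6, lay at 116, 114 and 119 CPM in control and 122, 136, 128 and 129 CPM in cKO. The groups did not overlap, with cKO replicate 1 the lowest of its group, and the log2 difference was 0.15 (SE 0.04, adjusted p = 0.105 by edgeR). Kpna4 and Kpna3 form another subfamily of adaptors. Kpna4 lay at 146, 142 and 136 CPM in control and at 158, 161, 164 and 151 CPM in cKO, a log2 difference of 0.16 (SE 0.04, adjusted p = 0.083 by edgeR). For Kpna3 the controls held 94.7, 93.3 and 88.6 CPM and the cKO libraries 97.2, 100, 107 and 97.8 CPM, a difference of 0.12 (SE 0.04, adjusted p = 0.172 by edgeR). Neither of these genes had a cKO library within the control range, and cKO replicate 3 was the highest in both.

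Kpna2, the adaptor on the list from the remaining subfamily, had an unadjusted p of 0.808 by edgeR, the largest of its class. Its controls lay at 186, 175 and 166 CPM and its cKO libraries at 175, 179, 181 and 172 CPM, so that the cKO values fell inside the control range (log2 difference 0.01, SE 0.04). Within each library the ratio of another importin alpha to Kpna2 does not depend on library scaling. The Kpna1 to Kpna2 ratio was 0.581, 0.61 and 0.664 in control and 0.68, 0.71, 0.696 and 0.709 in cKO. The Kpna4 to Kpna2 and Kpna3 to Kpna2 ratios had log2 differences of 0.15 and 0.11, with no overlap between groups. The Kpna6 to Kpna2 ratio overlapped (log2 difference 0.13). These genes were paired after their values were seen, so the ratios are a description and carry no test.

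**Figure D2:**
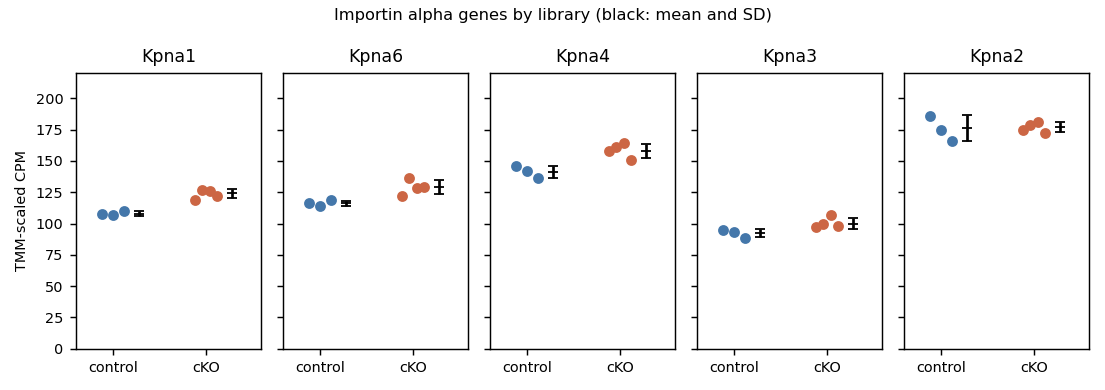
TMM-scaled CPM (y axis, from 0) of the 5 importin alpha genes in 3 control and 4 cKO libraries (points), with mean and SD in black. Kpna1, Kpna6, Kpna4 and Kpna3 have no cKO point within the control range, while the cKO points of Kpna2 at 172 to 181 CPM lie between its lowest and highest control.

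Per kilobase of annotated exon, the adaptors differed widely in control ventricle. Kpna2 was at 61.1 ± 3.63 CPM per kilobase (SD, n = 3), followed by Kpna3 at 21.5 ± 0.735. Kpna6 at 17.3 ± 0.338, Kpna4 at 15.8 ± 0.534 and Kpna1 at 12.8 ± 0.193 were lower, with neighbours in this order separated by more than their SD. The length is the union of all exons in GENCODE M21, so rarely used exons lower the value of a gene.

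The Ran cycle supplies direction to transport, and 0 of its 4 genes passed over all genes by edgeR, while 2 had an unadjusted p under 0.05. Ran, the small GTPase itself, lay at 356, 340 and 334 CPM in control and at 378, 397, 414 and 385 CPM in cKO. No cKO library was as low as the highest control, and the log2 difference was 0.20 (SE 0.04, adjusted p = 0.0655 by edgeR). Rangap1, the GTPase-activating protein that works on the cytoplasmic side of the pore, had the largest log2 difference of the list, 0.21 (SE 0.06, adjusted p = 0.109 by edgeR). Its controls held 203, 193 and 190 CPM and its cKO libraries 202, 238, 229 and 233 CPM. The groups overlapped through cKO replicate 1 alone, and without that library the difference was 0.26 with an adjusted p of 0.0324 by edgeR. Leaving out any of the other 6 libraries gave adjusted p-values from 0.158 to 0.279 by edgeR, the F169 libraries alone gave 0.356, and the libraries without Xist gave 0.405. Rangap1 shares 65 exonic bases with a gene on the opposite strand, and the submitters' notes do not state whether strand was used in counting. All 7 values of Rangap1 include estimated parts of counts, so its level is uncertain.

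Rcc1, the chromatin-bound exchange factor that loads Ran with GTP, was at 34.3, 37.3 and 36.4 CPM in control and 33.6, 38, 36.7 and 36.8 CPM in cKO. Nutf2, which returns Ran-GDP to the nucleus, was at 35.9, 31.5 and 35.9 CPM in control and at 33.6, 34.1, 36.2 and 34.3 CPM in cKO. Both overlapped between the groups (log2 differences 0.01, SE 0.05, and 0.01, SE 0.06). All 7 values of Nutf2 and 4 of the 7 of Rcc1 are not whole. Rcc1 also shares 135 exonic bases with a gene on its own strand and 19 with a gene on the other, so both levels are uncertain. Per kilobase of exon, Ran was the most abundant of the 51 genes (130 ± 4.32 CPM per kilobase in control, SD, n = 3).

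Promoter sequences are shown for Ran, Kpna4 and Xpo1, whose levels were higher in every cKO library than in every control, and for Kpna2, whose levels were not. They run from 250 bases before to 50 bases after the annotated gene start, 5′ to 3′ on the gene's strand, from RefSeq on GRCm38.p6, and capitals mark matches to the motifs named after them. The regions are chr5:129019906-129020205 (plus strand) for Ran, chr3:69127043-69127342 (minus) for Kpna4, chr11:23255791-23256090 (plus) for Xpo1 and chr11:106999476-106999775 (minus) for Kpna2.
Ran: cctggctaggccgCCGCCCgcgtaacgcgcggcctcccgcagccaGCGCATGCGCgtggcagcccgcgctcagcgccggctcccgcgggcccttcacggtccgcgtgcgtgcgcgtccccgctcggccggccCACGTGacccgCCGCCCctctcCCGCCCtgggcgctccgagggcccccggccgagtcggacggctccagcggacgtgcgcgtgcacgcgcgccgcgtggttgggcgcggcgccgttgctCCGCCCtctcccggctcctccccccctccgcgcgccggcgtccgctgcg
Kpna4: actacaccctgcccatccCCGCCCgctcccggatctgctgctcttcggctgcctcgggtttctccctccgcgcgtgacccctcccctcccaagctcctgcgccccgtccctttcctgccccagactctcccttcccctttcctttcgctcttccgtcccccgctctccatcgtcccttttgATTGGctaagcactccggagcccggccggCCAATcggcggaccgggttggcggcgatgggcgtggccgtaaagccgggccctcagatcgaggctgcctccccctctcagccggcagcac
Xpo1: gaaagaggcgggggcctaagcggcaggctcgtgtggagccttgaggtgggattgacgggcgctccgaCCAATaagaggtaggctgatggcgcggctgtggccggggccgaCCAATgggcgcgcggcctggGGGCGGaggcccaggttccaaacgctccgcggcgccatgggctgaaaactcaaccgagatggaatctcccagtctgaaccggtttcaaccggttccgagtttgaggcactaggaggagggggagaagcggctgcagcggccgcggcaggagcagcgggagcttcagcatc
Kpna2: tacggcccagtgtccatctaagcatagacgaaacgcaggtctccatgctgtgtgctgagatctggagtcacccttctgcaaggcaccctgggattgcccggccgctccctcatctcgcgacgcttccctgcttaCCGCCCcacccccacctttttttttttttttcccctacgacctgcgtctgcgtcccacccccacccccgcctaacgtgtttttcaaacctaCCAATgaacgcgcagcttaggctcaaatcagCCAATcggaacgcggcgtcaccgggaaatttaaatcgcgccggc

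The motifs, searched on both strands, were the E-box CACGTG, the CCAAT box, the cyclic-AMP element TGACGTCA, the ETS core CCGGAAG, the GC box GGGCGG, the NRF1 palindrome (the longest run of capitals in the Ran promoter) and the AP-1 site TGANTCA. None of the matches shown overlaps another. The Ran promoter held 1 E-box, 1 NRF1 match and 4 GC boxes, with 82% G and C. Kpna4, Xpo1 and Kpna2 each held 2 CCAAT boxes and 1 GC box, so Kpna2 shared its motif counts with Kpna4 and Xpo1 and differed from Ran. RefSeq promoters were matched for 41 of the 51 genes by symbol, and Kpna1 was among those not matched. The NRF1 site was in 5 of these 41 genes (12.2%), against 2.15% of the 11504 tested genes with a promoter and 0.971% of all 32851 promoters. An E-box was in 9 of 41 (22%) against 11.5% of tested genes and 7.15% of all promoters, and a GC box in 30 of 41 (73.2%) against 66.8% and 35.7%. CCAAT boxes (46.3% of member genes, 42.3% of tested genes, 37.4% of all promoters) and ETS cores (17.1%, 18.3% and 8.86%) were near the share of tested genes. The AP-1 site was in 4 of 41 (9.76%, against 6.28% and 7.81%) and the cyclic-AMP element in 2 of 41 (4.88%, against 3.4% and 1.79%). A match describes the letters and was not tested as a binding site.

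The 9 import receptors of the importin beta family all had positive log2 fold changes, from 0.03 for Ipo7 to 0.15 for Tnpo2, and 3 had an unadjusted p under 0.05. Tnpo2, a transportin that imports RNA-binding proteins, lay at 107, 110 and 106 CPM in control and 118, 120, 116 and 123 CPM in cKO. The lowest cKO library was above the highest control, with a log2 difference of 0.15 (SE 0.03, adjusted p = 0.0687 by edgeR). All 7 values of Tnpo2 include estimated parts of counts, and 666 of its exonic bases lie opposite another gene, so its level is uncertain. Its paralogue Tnpo1 was at 178, 178 and 187 CPM in control and at 200, 203, 204 and 188 CPM in cKO. Here the groups almost met, between control replicate 3 and cKO replicate 4, which are the 2 F191 libraries (log2 difference 0.13, SE 0.04, adjusted p = 0.135 by edgeR). Of the 7 values of Tnpo1, 5 are not whole.

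Kpnb1, importin beta itself, is the partner of every importin alpha and was the most abundant import receptor per kilobase (102 ± 2.26 CPM per kilobase in control, SD, n = 3). It lay at 671, 688 and 658 CPM in control and at 691, 739, 741 and 723 CPM in cKO, with the lowest cKO library just above the highest control, and 466 of its exonic bases lie opposite another gene. The log2 difference was 0.11 (SE 0.04, adjusted p = 0.199 by edgeR). The ribosomal protein importers Ipo5 (0.09, SE 0.05) and Ipo7 (0.03, SE 0.04), the histone importers Ipo4 (0.08, SE 0.05) and Ipo9 (0.06, SE 0.03), and Ipo8 (0.09, SE 0.04) and Ipo11 (0.07, SE 0.03) did not reach an unadjusted p of 0.05. Of these 6, Ipo9 (208, 206 and 210 CPM in control, 216, 218, 212 and 223 CPM in cKO) and Ipo11 (108, 108 and 108 CPM in control, 110, 113, 118 and 110 CPM in cKO) had no overlap between the groups. Ipo4 shares 2583 exonic bases with another gene on its own strand, so its counts are uncertain.

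Among the 7 export receptors, 2 had an unadjusted p under 0.05 and the signs were mixed. Xpo1, the receptor for leucine-rich nuclear export signals also called CRM1, lay at 285, 276 and 278 CPM in control and 298, 310, 311 and 302 CPM in cKO. All cKO libraries were above all controls by a log2 mean of 0.13 (SE 0.03, adjusted p = 0.1 by edgeR). Of the 7 values of Xpo1, 5 are not whole. Xpot, which exports transfer RNA, was at 116, 119 and 113 CPM in control and at 126, 131, 127 and 122 CPM in cKO. It did not overlap either (0.12, SE 0.03, adjusted p = 0.112 by edgeR). Xpo4 was the least abundant of the 51 genes per kilobase (2.23 ± 0.0742 CPM per kilobase in control, SD, n = 3) and had a log2 difference of 0.12 with a larger error (SE 0.06). Cse1l, which recycles importin alpha to the cytoplasm, had 0.07 (SE 0.04). The microRNA precursor exporter Xpo5 (0.01, SE 0.04) and Xpo7 (-0.01, SE 0.04) were near 0, and the actin exporter Xpo6 had -0.07 (SE 0.04, unadjusted p = 0.133 by edgeR).

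**Figure D3:**
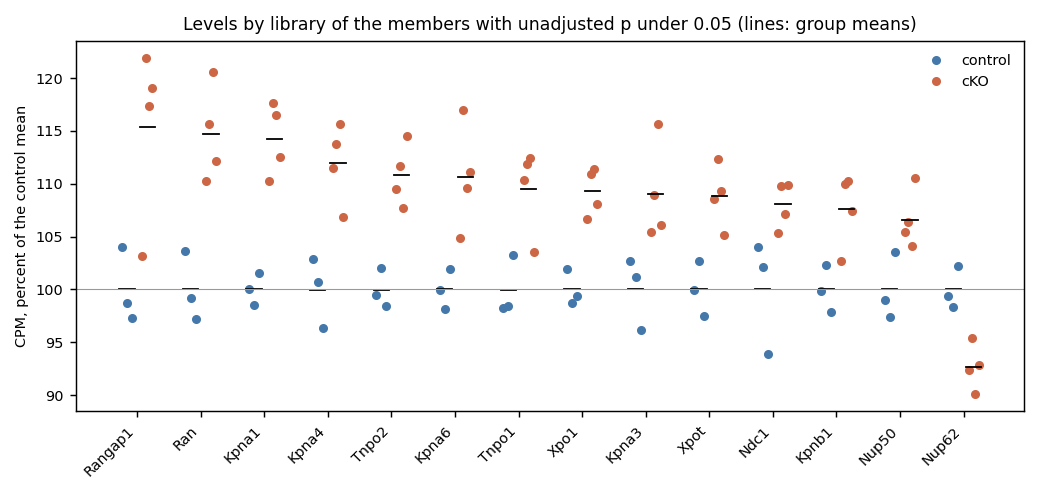
Level of each of the 14 genes with an unadjusted p under 0.05 in every library (points), as a percent of that gene's control mean (y axis, not starting at 0), with group means as lines. Rangap1 is the gene whose groups overlap, through cKO replicate 1, and Nup62 is the gene whose 4 cKO libraries lie below its controls.

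Among nucleoporins, 3 of 26 had an unadjusted p under 0.05, in different directions, and none passed over all genes by edgeR or DESeq2. Nup62, a phenylalanine-glycine nucleoporin of the central channel, had the lowest log2 fold change of the whole list. It lay at 101, 100 and 104 CPM in control and at 94, 97.1, 91.7 and 94.5 CPM in cKO, so that every cKO library was below every control. The log2 difference was -0.11 (SE 0.03, adjusted p = 0.13 by edgeR). Nup62 shares 97 exonic bases with a gene on its own strand and 82 with Atf5 on the other, and 4 of its 7 values are not whole. Its channel partner Nup54 had 0.04 (SE 0.04).

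Nup50, a mobile basket protein that helps to release cargo from importin alpha, lay at 78, 76.7 and 81.5 CPM in control and at 83.1, 83.8, 81.9 and 87 CPM in cKO. The groups were separated by a narrow gap between control replicate 3 and cKO replicate 3 (log2 difference 0.09, SE 0.04, adjusted p = 0.228 by edgeR). The other basket proteins, Nup153 (-0.03, SE 0.03) and Tpr (-0.01, SE 0.04), overlapped. Ndc1, a membrane protein that anchors the pore, was at 43.4, 42.6 and 39.2 CPM in control and at 44, 45.8, 44.7 and 45.9 CPM in cKO. Its log2 difference was 0.11 (SE 0.04, adjusted p = 0.229 by edgeR), and control replicate 3 was the lowest library. Aaas (aladin), which Ndc1 recruits, had 0.11 with a larger error (SE 0.06), Pom121 had 0.06 (SE 0.04) and the membrane nucleoporin Nup210 had -0.06 (SE 0.06).

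In the Y complex, which coats the outer rings, 0 of 7 genes had an unadjusted p under 0.05 by edgeR or DESeq2 and 0 had groups that did not overlap. Its values ran from -0.03 for Nup107 (SE 0.05) to 0.10 for Nup160 (SE 0.06), with Nup133, Nup43, Seh1l, Nup37 and Nup85 between them, and the median was 0.001. The 7 genes summed to 353 to 366 CPM in control and 356 to 372 CPM in cKO. Of the 5 inner ring genes, Nup205 had no overlap, at 143, 144 and 144 CPM in control and 147, 151, 152 and 151 CPM in cKO (log2 difference 0.06, SE 0.03, unadjusted p = 0.0654 by edgeR). Nup35 (0.08, SE 0.06), Nup93 (0.05, SE 0.04), Nup188 (0.01, SE 0.04) and Nup155 (-0.001, SE 0.04) overlapped. On the cytoplasmic face, Ranbp2, the SUMO ligase to which SUMO-modified RanGAP1 binds, had 0.04 (SE 0.04), Nup88 -0.001 (SE 0.04) and Nup214 -0.05 (SE 0.05). Nup98 (0.01, SE 0.03) and its messenger RNA export partner Rae1 (-0.06, SE 0.04) overlapped as well.

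Other genes of the pathway were read from lists that stand apart from the 51. Of 9 further tested nucleoporins 0 passed over all genes by edgeR, and 3 were higher at an unadjusted p under 0.05 (Sec13, 0.12, SE 0.03; Tmem33, 0.12, SE 0.04; Gle1, 0.11, SE 0.04). Of 16 further receptors and Ran factors 0 passed and 5 were higher, among them Rangrf (0.28, SE 0.08) and the importin Ranbp6 (0.13, SE 0.04). That list also holds genes of the SUMO pathway, and Senp2 was among the 5. Of 21 messenger RNA export factors 0 passed, 2 were higher and 1 was lower. Over all genes tested, 9.4% were higher and 8.5% lower at an unadjusted p under 0.05 by edgeR. The helicase Ddx39 lay at 61, 63.8 and 56.9 CPM in control and 67, 72.4, 76.2 and 73.3 CPM in cKO (0.25, SE 0.05, adjusted p = 0.061 by edgeR), and the adaptor Alyref had 0.17 (SE 0.04). The lower gene was the export receptor Nxf1 (-0.10, SE 0.04). List medians were 0.10, 0.03 and 0.03. In these further genes the order of the medians was thus the opposite of that in the 51: 7 of the 9 further nucleoporins and 9 of the 16 further receptors and Ran factors had positive values. The median of the further nucleoporins is the value of Nup62cl (0.10, SE 0.29), which lay at 0.434 to 0.907 CPM over all libraries. The highest value of that list was Nup210l (0.16, SE 0.18), at 1.99 to 3.17 CPM, so this median is uncertain.

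Marker lists of other cell types and states were read in the same libraries. At an unadjusted p under 0.05, 9.4% of all genes were higher and 8.5% lower by edgeR. Leukocyte markers summed to 138 to 142 CPM in control and 154 to 168 CPM in cKO, with 9 of 10 higher at an unadjusted p under 0.05, 1 lower and none at 0, and C1qb passed over all genes (adjusted p = 0.0425 by edgeR). Endothelial markers summed to 1662 to 1756 CPM and 1784 to 1850 CPM, with 4 of 10 higher, 0 lower and none at 0. Ribosome biogenesis genes, of which 18 of 20 had positive values with a median of 0.06, overlapped in sum. They held 2354 to 2393 CPM in control and 2376 to 2513 CPM in cKO. Of these 20 genes 6 were higher and 0 lower at an unadjusted p under 0.05. Atrial markers summed to 1637 to 1919 CPM in control and 2103 to 2745 CPM in cKO, with 2 of 7 higher, 0 lower and none at 0. Nppa made up most of that sum (means of 1228 and 1902 CPM), and the median log2 fold change of the list was 0.004. Smooth muscle and pericyte markers, with 2 of 8 higher and 1 lower, overlapped narrowly at 1232 to 1430 CPM in control and 1429 to 2075 CPM in cKO. Proliferation markers overlapped, at 4011 to 4194 CPM in control and 3963 to 4366 CPM in cKO, with 6 of 25 higher and 1 lower at an unadjusted p under 0.05. Red cell markers had a median of -0.29, with 1 of 10 lower, 0 higher and 9 negative, and their sums overlapped at 1990 to 3757 CPM in control and 2467 to 2706 CPM in cKO. Of the 12 cardiomyocyte markers 8 were negative. At an unadjusted p under 0.05, 1 was higher (Myh6, 0.19) and 2 were lower (Ryr2, -0.22, and Tnni3, -0.13). Fibroblast and epicardial markers overlapped, at 4422 to 5299 CPM in control and 4080 to 5390 CPM in cKO. Of these 10 genes 0 were higher and 0 lower, with a median of -0.03. The part of these lists in the values of the 51 genes was not tested.

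**Figure D4:**
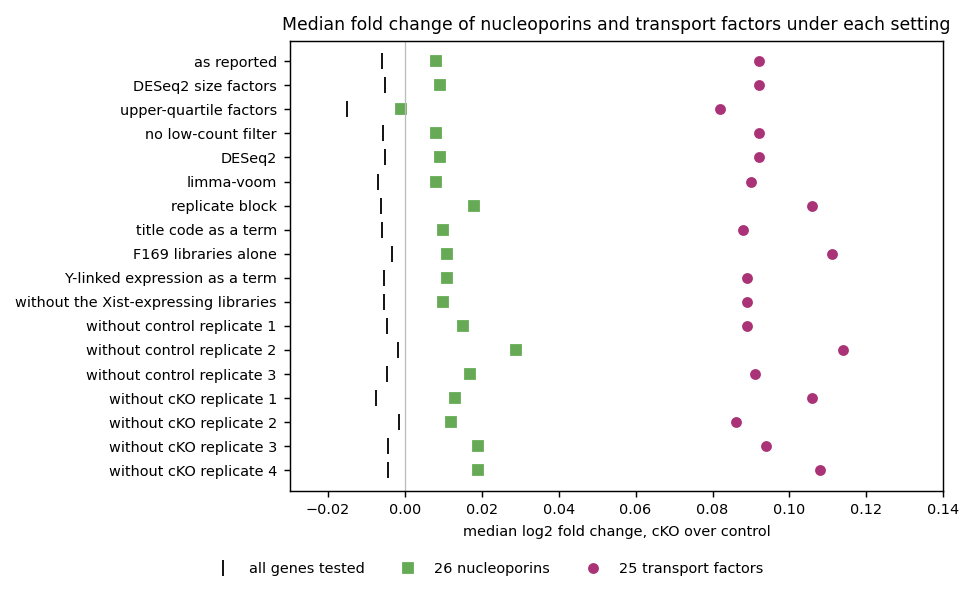
Median log2 fold change (x axis) of the 26 nucleoporins (squares), the 25 transport factors (circles) and all genes tested (bars) as reported and under each of the 17 alternatives (y axis). The transport medians lie between 0.082 and 0.114 and the nucleoporin medians between -0.001 and 0.029.

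The same counts were taken within subsets of the libraries. Without the 2 Xist-expressing libraries, 10 of the 51 genes were higher at an unadjusted p under 0.05, all of them transport factors, and 0 were lower, while 6.56% of all genes were higher. Within the F169 libraries 13 were higher, 12 of them transport factors, and 2 were lower, and 7.48% of all genes were higher. No test was possible within F191, which has 1 library of each group. None of the 51 passed over all genes in either case by edgeR. The number that passed was 7 with DESeq2 (Kpna1, Kpna4, Kpna6, Tnpo2, Xpo1, Ran and Rangap1), which called 5.18% of the 12286 genes it adjusted and 3.16% as higher in cKO. With DESeq2's Wald test the adjusted p of Kpna1 was 0.000382 and that of Ran 0.000575.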

How the data were processed

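Total RNA was made into directional Illumina libraries, per the labels' protocols. The values in the deposited table are estimated counts for each gene, and 30.3% of its values are not whole. The submitters' processing notes name STAR 2.4.2a, HTSeq 0.6.1 and mm10, with no role or order, and the use of strand in counting was not stated there. The last value column, 1 in number, equalled the sum of the 7 libraries in all 15358 genes (tolerance 1e-06 counts) and was not used. Counts were rounded, filtered with filterByExpr (minimum count 10, 14887 genes kept), scaled by TMM and tested with edgeR 4.0.16 (glmQLFit and glmQLFTest, R 4.3.3), adjusted over all genes at 0.05. Levels are TMM-scaled CPM, and each log2 fold change (cKO over control) has an SE from the F statistic. DESeq2 1.42.0 and limma 3.58.1 served as alternatives. The labels call the controls littermates but name no litters, so the p-values measure only how these samples vary, which may be technical. The members, lists and tests were chosen with earlier results of these data known. Library values are given for members with an unadjusted p under 0.05, or with groups that do not overlap, others by class; those of Kpna2, Rcc1 and Nutf2 were added after their values were seen.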

Additional observations from a re-analysis of the deposited data

Results flagged for a closer look

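Among the 4 cKO libraries, 2 of the 51 genes had a library far from the other 3 by Dixon's ratio, and chance alone gives about 1 in 20 groups. Nup35 was lowest in cKO replicate 2, at 11.3 CPM. Nup93 was lowest in cKO replicate 1, at 76.5 CPM.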

How the results depend on the processing

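Kpna1 was the called member; it kept its call with both other scalings, no filter, DESeq2, limma-voom, the title code as a term and without cKO replicate 1. With the replicate number as a block 13 genes were called and 0 members, with a Y-linked term 20 and 0, within F169 20 and 0, without the Xist-expressing libraries 17 and 0, and with DESeq2 637 and 7. Leaving out 1 library gave 28 to 133 genes and 0 to 2 members. Members at an unadjusted p under 0.05 numbered 14 as reported and 9 in the fit with the Y-linked term. They numbered 10 without the Xist-expressing libraries and 11 without control replicate 3. Without cKO replicate 1, 16 members were higher and 1 was lower at that threshold. The replicate numbers did not pair the libraries, as deviations of same-numbered libraries correlated at 0.039, -0.075 and -0.079. The highest correlation over all pairs of a control and a cKO library was 0.224. It was between control replicate 3 and cKO replicate 4, the 2 F191 libraries. Fits that left out libraries had fewer samples; otherwise the cause was not tested. Of the log2 fold changes of members, 797 kept direction and call, 10 lost the call, 7 gained it and 53, in 14 genes near 0, changed sign. Values after the sign change were 0.000 for Nup155 with DESeq2 size factors and with DESeq2; -0.008, -0.002 and -0.002 for Seh1l, Nup98 and Nutf2 with upper-quartile factors; and 0.005 for Nup88 with the title code as a term. With the block they were 0.021 (Nup155), -0.010 (Nup188), -0.001 (Nup98) and 0.005 (Xpo7). Within F169 they were 0.008 (Nup155), -0.015 (Nup188), -0.014 (Kpna2) and 0.030 (Xpo7). With the Y-linked term they were 0.006 (Nup43), 0.012 (Nup155), -0.006 (Nup98), -0.005 (Rcc1) and -0.024 (Nutf2), and without the Xist-expressing libraries 0.005, 0.011, -0.005, -0.005 and -0.021 for the same genes. With 1 library left out, the ranges were -0.007 to 0.058 for Nup37, -0.044 to 0.033 for Nup43, -0.085 to 0.002 for Nup107, -0.011 to 0.023 for Seh1l, -0.016 to 0.023 for Nup155, -0.008 to 0.036 for Nup188, -0.011 to 0.021 for Nup98, -0.028 to 0.025 for Nup88, -0.031 to 0.007 for Tpr, -0.029 to 0.058 for Kpna2, -0.005 to 0.025 for Xpo5, -0.035 to 0.012 for Xpo7, -0.019 to 0.047 for Rcc1 and -0.054 to 0.041 for Nutf2.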
